A study of Mus musculus with 6 samples.

Results

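Heat shock proteins are the chaperones that cells make more of when proteins unfold. The list described here held 10 mouse genes: the inducible Hsp70 pair Hspa1a and Hspa1b, the small heat shock protein gene Hspb1, the Hsp110 gene Hsph1, the Hsp40 co-chaperone gene Dnajb1, the inducible Hsp90 gene Hsp90aa1, the constitutive chaperone genes Hspa8 and Hsp90ab1, the endoplasmic reticulum chaperone gene Hspa5 and the heat shock factor gene Hsf1. Members were all probe sets whose platform annotation gives exactly 1 gene symbol and whose symbol is in that list. This found 22 probe sets of 8 genes, of 34945 probe sets with 1 symbol. Hsp90ab1 and Hsf1 were not analysed here. RNA came from 6 samples of primary mouse microglial cultures, 1 single-colour array each: 3 lacking Dap12 and 3 wild-type. The titles of 4 samples carry a joined pair of numbers, and those of Dap12-deficient sample 3 and wild-type sample 2 a single number. The sources used here do not say what the numbers mean, so a sample may hold RNA of 1 culture or a pool of several. Microglia are brain-resident macrophages, and Dap12, encoded by Tyrobp, is an adaptor that links myeloid receptors, Trem2 among them, to Syk signalling. The sources used here do not give strain, age, sex or the way Dap12 was inactivated. They also do not say whether samples came from separate animals, so the p-values reflect only how these samples varied, which may be technical.

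In resting cells Hsp70 and Hsp90 hold heat shock factor 1 inactive. When unfolded proteins draw the chaperones away, the factor forms trimers, binds heat shock elements and raises transcription of Hspa1a, Hspa1b, Dnajb1, Hsph1 and Hspb1. Hspa8 and Hsp90ab1 do the same folding work in unstressed cells, while Hspa5 (BiP) serves the endoplasmic reticulum and answers to the unfolded protein response. In macrophages and microglia the inducible genes also react to dissociation, fever-range heat and inflammatory stimuli.

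The promoters of 6 members were matched by symbol in RefSeq (GRCm38.p6), each as a window of 300 bases around the start of the gene; the windows of Hspa1a, Hspa1b, Hspb1, Hsph1 and Hspa5 are shown because they carry the elements by which these genes are usually divided into heat shock and endoplasmic reticulum stress genes. Capitals mark matches to a heat shock element of 2 facing units (GAANNTTC or TTCNNGAA) or, in Hspa5, to the endoplasmic reticulum stress element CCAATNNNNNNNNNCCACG, searched on both strands.
Hspa1a promoter, chr17:34972107-34972406, minus strand: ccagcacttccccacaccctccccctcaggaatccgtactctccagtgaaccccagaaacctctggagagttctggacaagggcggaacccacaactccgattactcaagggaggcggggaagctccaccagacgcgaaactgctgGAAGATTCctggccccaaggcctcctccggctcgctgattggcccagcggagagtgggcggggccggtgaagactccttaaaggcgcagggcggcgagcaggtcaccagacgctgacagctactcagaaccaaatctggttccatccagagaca
Hspa1b promoter, chr17:34959189-34959488, minus strand: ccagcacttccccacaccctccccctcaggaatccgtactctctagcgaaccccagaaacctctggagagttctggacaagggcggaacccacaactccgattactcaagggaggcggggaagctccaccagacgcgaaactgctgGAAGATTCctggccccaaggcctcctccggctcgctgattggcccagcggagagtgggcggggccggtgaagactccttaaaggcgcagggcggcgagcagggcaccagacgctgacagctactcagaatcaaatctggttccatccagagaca
Hspb1 promoter, chr5:135887669-135887968, plus strand: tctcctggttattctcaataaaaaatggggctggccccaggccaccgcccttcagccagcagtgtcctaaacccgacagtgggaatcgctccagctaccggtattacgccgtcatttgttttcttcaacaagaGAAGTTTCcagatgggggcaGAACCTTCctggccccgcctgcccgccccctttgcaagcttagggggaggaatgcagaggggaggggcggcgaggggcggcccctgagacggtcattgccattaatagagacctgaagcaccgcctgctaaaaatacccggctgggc
Hsph1 promoter, chr5:149636287-149636586, minus strand: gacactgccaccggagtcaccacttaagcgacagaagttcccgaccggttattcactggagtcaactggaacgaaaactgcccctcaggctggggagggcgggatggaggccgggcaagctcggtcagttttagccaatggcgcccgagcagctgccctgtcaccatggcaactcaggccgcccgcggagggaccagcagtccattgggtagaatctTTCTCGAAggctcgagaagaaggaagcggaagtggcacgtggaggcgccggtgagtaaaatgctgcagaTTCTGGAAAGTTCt
Hspa5 promoter, chr2:34771840-34772139, plus strand: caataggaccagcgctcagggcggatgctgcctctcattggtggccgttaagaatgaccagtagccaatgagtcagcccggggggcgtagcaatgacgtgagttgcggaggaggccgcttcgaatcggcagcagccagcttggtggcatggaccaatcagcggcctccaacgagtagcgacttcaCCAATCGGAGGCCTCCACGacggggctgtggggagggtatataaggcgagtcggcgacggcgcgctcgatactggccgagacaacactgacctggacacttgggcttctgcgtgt

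Hspa1a and Hspa1b, neighbouring genes on chromosome 17, have nearly the same promoter: the windows differed at 4 of 300 bases. Each held 1 match to the 2-unit element, beginning 104 bases before the start. Hspb1 held 2 matches, beginning 117 and 97 bases before the start. Hsph1, shown by the first of its 2 windows, held 3 matches, beginning 33 bases before and 36 and 41 bases after the start. The last 2 overlap and form a 3-unit element (GAANNTTCNNGAA or TTCNNGAANNTTC), the only one found in the windows of these 6 genes. Neither window of Dnajb1 held a match, and Hspa5 held the stress element, beginning 65 bases before its start. Of 32851 such windows in the table, 15.1% held a 2-unit element, 0.603% a 3-unit element and 0.119% the stress element, so the short motif is common. These are matches of letters, not measured binding.

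Tyrobp, the targeted gene, gave 5584, 7271 and 5396 on wild-type arrays 1, 2 and 3 against 125, 96.4 and 96.2 on Dap12-deficient arrays 1, 2 and 3, low in all 3 arrays labelled deficient. Signals had been scaled so that the mean, with the outer 2% at each end left out, was 100.001 on each array. Median signals were 11.9 to 14.0 on wild-type and 14.6 to 16.5 on Dap12-deficient arrays. Csf1r, a defining microglial receptor, was at 5439 to 9522 on the 6 arrays. The summed signal of 9 microglial genes was 19925 to 28071 in wild-type against 16362 to 24680 in Dap12-deficient cultures, and 8 of the 9 were lower by group mean (median log2 difference -0.29). Markers of other brain cells were present as well: the summed signal of 11 oligodendrocyte lineage genes was 7583 to 11078 in wild-type against 3742 to 8859 in Dap12-deficient cultures, and that of 10 astrocyte genes 491 to 661 and 507 to 1571. In such bulk RNA, fewer cells of a type and less RNA per cell cannot be told apart.

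No chaperone passed the test between the groups. Of the 22 member probe sets, 20 were bright enough to be tested, and 0 had a limma adjusted p under 0.05 (the smallest was 0.311), against 0.0074% of all 27022 tested probe sets. At an unadjusted p under 0.05 there were 5 of 20, against 10.7% of all tested. They were 3 higher in Dap12-deficient cultures, 1 of Hspa1b and 2 of Hsp90aa1, and 2 lower, both of Hspb1. Over all tested probe sets 7.05% were higher and 3.61% lower at that level. Arrays did not overlap between the groups for 3 tested probe sets that were higher (background 9.6%) and 1 that was lower (background 6.89%), and the other 16 overlapped. Of the 20, 13 had a log2 difference above 0, against 53.4% of all tested. Their median was 0.05, beside 0.03 for all tested probe sets. Probe sets of a gene are not independent, so these counts rest on 8 genes. With 1 probe set per gene, its brightest, 3 members were higher and 5 lower, and the median was -0.06 beside -0.03 for all 12875 genes.

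**Figure D1:**
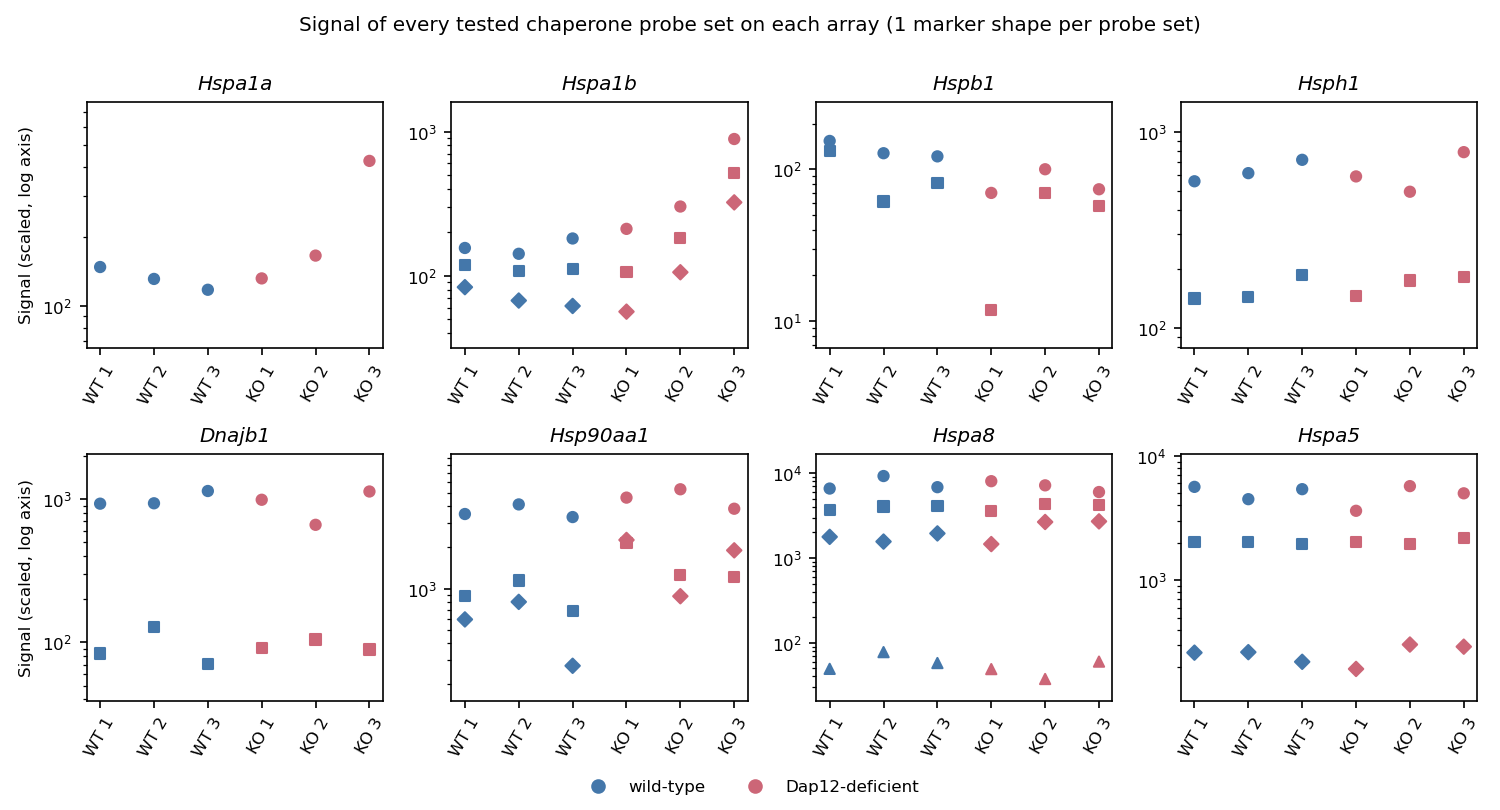
Scaled signal (log axis) of the 20 tested probe sets on wild-type arrays (WT 1 to 3, blue) and Dap12-deficient arrays (KO 1 to 3, red), 1 panel per gene and 1 marker shape per probe set. The 4 probe sets of Hspa1a and Hspa1b stand out on Dap12-deficient array 3. Hspb1 is low on the Dap12-deficient arrays by its brighter probe set, and by the other the groups overlap.

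The inducible Hsp70 genes had their highest signals on a single array. Hspa1a and Hspa1b encode nearly identical proteins that refold damaged proteins after stress, and their transcripts are so alike that their probe sets may read each other's RNA. The brightest probe set of Hspa1b gave 156, 142 and 181 on wild-type arrays 1, 2 and 3 against 211, 302 and 887 on Dap12-deficient arrays 1, 2 and 3. All 3 Dap12-deficient arrays were above all wild-type arrays, but array 3 was far above the other two. The group values were 160 ± 19.9 (SD, n = 3) in wild-type against 467 ± 367 (SD, n = 3) in Dap12-deficient cultures, a difference of 1.20 on the log2 scale (SE 0.41, limma adjusted p = 0.367). The only probe set of Hspa1a gave 147, 131 and 117 in wild-type against 132, 165 and 427 in Dap12-deficient cultures, a difference of 0.63 on the log2 scale (SE 0.35, limma adjusted p = 0.557). Here the groups overlapped, since Dap12-deficient array 1 lay within the wild-type range. Both dimmer probe sets of Hspa1b also overlapped. Probe set 1427127_x_at gave 118, 108 and 111 in wild-type against 106, 183 and 519 in Dap12-deficient cultures, a difference of 0.87 on the log2 scale (SE 0.43, limma adjusted p = 0.508). Probe set 1427126_at gave 83.3, 67.2 and 61.7 in wild-type against 56.3, 106 and 322 in Dap12-deficient cultures, a difference of 0.74 (SE 0.45, limma adjusted p = 0.587). It is the only Hspa1b probe set left when those that can bind several transcripts are dropped. Without Dap12-deficient array 3 the differences of these probe sets were 0.28 and 0.12.

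Across the 4 probe sets of the pair, the signal on Dap12-deficient array 3 was 3.24 to 5.56 times the wild-type mean, that on array 2 was 1.25 to 1.89 times it, and that on array 1 was 0.796 to 1.32 times it. The highest and the lowest wild-type array differed by 1.10 to 1.35 times. The size of the group difference thus rested on array 3: without it the log2 difference of Hspa1b by its brightest probe set was 0.62 (limma adjusted p = 0.53) and that of Hspa1a 0.15 (limma adjusted p = 0.841). Without Dap12-deficient array 1 they were 1.62 (limma adjusted p = 0.206) and 0.94 (limma adjusted p = 0.384). On wild-type array 2, the other array with a single number in its title, the 4 probe sets were within the range of the other 2 wild-type arrays or below it.

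Other markers also stood apart on Dap12-deficient array 3. The 10 astrocyte genes summed to 1571 there, against 491 to 809 on the other 5 arrays, and 8 of the 10 had their highest signal on it. Gfap, the intermediate filament of astrocytes, was at 237 against 15.3 to 96.7 elsewhere. The 11 oligodendrocyte lineage genes summed to 3742 on that array, the lowest of the 6, and the 9 microglial genes to 16362, also the lowest. The low oligodendrocyte sum was shared with Dap12-deficient array 2, at 4255, while the remaining arrays were at 7583 to 11078. Not every gene of that list was low on array 3. The myelin gene Mbp was at 358 there, against 1142 to 5535 elsewhere. Cnp (933), Olig1 (1505), Olig2 (190) and Pdgfra (562) lay within the range of the other arrays. The 8 neuron genes summed to 311 on array 3 and to 373 to 526 elsewhere. The 7 fibroblast and meningeal genes (155) and the 5 endothelial genes (91.7) lay within the range of the other arrays. Of all these markers 0 were at exactly 0 on any array, but the endothelial marker Pecam1 was at most 2.35. Of 12 immediate early genes, which dissociation and handling also raise, 5 were highest on that array (20.5% of all 12875 genes were), and their mean log2 deviation from the 6-array mean was 0.21 there and -0.13 to 0.04 elsewhere. Between the groups 7 of the 12 were higher and 5 lower in Dap12-deficient cultures (median log2 difference 0.04). Jun, a subunit of the AP-1 factor, gave 617, 620 and 700 in wild-type against 788, 783 and 1075 in Dap12-deficient cultures. The early response genes Ier3 and Fosb had differences of 0.33 (SE 0.18) and 0.31 (SE 0.24) on the log2 scale. Ier3 was highest on Dap12-deficient array 1, at 2503 beside 2325 on array 3. Fos, the partner of Jun, was at 2798 on array 3, below every other array. What part the astrocyte RNA or these early genes have in the Hspa1a and Hspa1b signals was not tested.

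**Figure D2:**
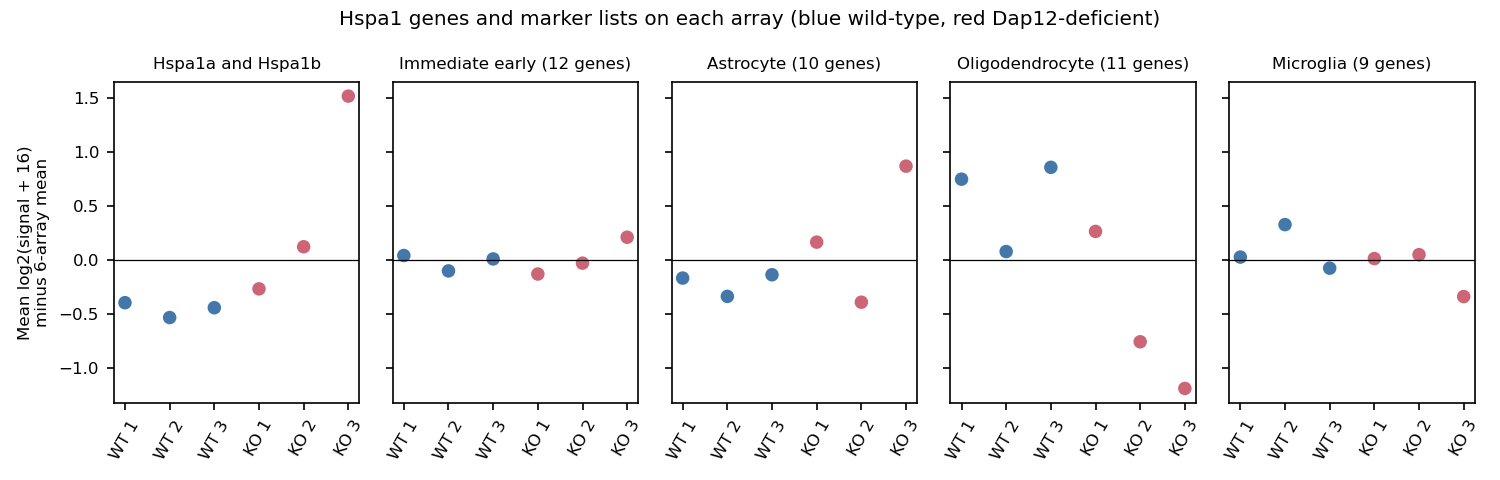
Mean log2(signal + 16) minus the 6-array mean, per array, for Hspa1a with Hspa1b, 12 immediate early genes and 3 lists of cell type markers (blue wild-type, red Dap12-deficient). On Dap12-deficient array 3 the Hspa1 pair is at 1.52 and the astrocyte list at 0.87, the oligodendrocyte list is at -1.19 and the microglia list at -0.34. The oligodendrocyte list is also low on Dap12-deficient array 2, at -0.76.

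Hspb1, the gene of the small heat shock protein Hsp25, was lower in Dap12-deficient cultures by both its probe sets, without passing the test. Its product holds unfolding proteins in a refoldable state without using ATP, and also binds actin. Its brighter probe set gave 154, 128 and 122 on wild-type arrays 1, 2 and 3 against 69.9, 100.1 and 73.9 on Dap12-deficient arrays 1, 2 and 3. All 3 Dap12-deficient arrays were below all wild-type arrays, by a narrower margin for array 2. On the log2 scale the difference was -0.64 (SE 0.20, 95% interval -1.09 to -0.18, limma adjusted p = 0.35), with all 3 arrays lower. The other probe set gave 133, 61.4 and 81.0 in wild-type against 11.9, 69.4 and 57.6 in Dap12-deficient cultures, and here the groups overlapped. Its log2 difference was -0.89 (SE 0.40, limma adjusted p = 0.463), and -0.39 without Dap12-deficient array 1, its dimmest array. Hspb1 lay on the other side of 0 from Hspa1a and Hspa1b, and all 3 promoters hold the 2-unit element printed above. On Dap12-deficient array 3, where the Hspa1 pair was highest, the brighter Hspb1 probe set was at 0.55 times its wild-type mean. In the same cultures 8 of the 9 microglial genes and 9 of the 11 oligodendrocyte lineage genes were lower and all 10 astrocyte genes higher by group mean, and their part in the Hspb1 signal was not tested.

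Hsp90aa1 encodes the stress-inducible cytosolic Hsp90, which holds kinases and steroid receptors ready for activation. All of its 5 probe sets had a higher mean in Dap12-deficient cultures, but by very different amounts. The brightest, 1438902_a_at, gave 3513, 4130 and 3337 in wild-type against 4632, 5331 and 3840 in Dap12-deficient cultures, a difference of 0.32 on the log2 scale (SE 0.18, limma adjusted p = 0.561) with overlapping groups. It was 0.21 without Dap12-deficient array 2 and 0.20 with arrays set to a common median. Probe set 1426645_at gave 877, 1145 and 684 in wild-type against 2154, 1260 and 1207 in Dap12-deficient cultures, a difference of 0.74 on the log2 scale (SE 0.27, limma adjusted p = 0.379), and 0.47 without Dap12-deficient array 1. Probe set 1437497_a_at gave 594, 799 and 272 in wild-type against 2268, 879 and 1904 in Dap12-deficient cultures, a difference of 1.59 on the log2 scale (SE 0.41, limma adjusted p = 0.311). By 1426645_at and 1437497_a_at every Dap12-deficient array was above every wild-type array, most clearly array 1. The margin was small for arrays 2 and 3 by the former and for array 2 by the latter. The other 2 were too dim to be tested, with signals of 1.21 to 10.1.

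The probe sets of Hsp90aa1 also disagreed in which array was highest. Dap12-deficient array 2 was the highest by the brightest probe set and the lowest of its group by 1437497_a_at. Within wild-type the highest array was 1.24 times the lowest by the brightest probe set and 2.94 times by 1437497_a_at. The difference by 1437497_a_at did not pass with any of the 6 arrays left out, but came close without Dap12-deficient array 2 (log2 difference 2.00, limma adjusted p = 0.0500188). The sources used here do not say where on the transcript the probes of each set lie.

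**Figure D3:**
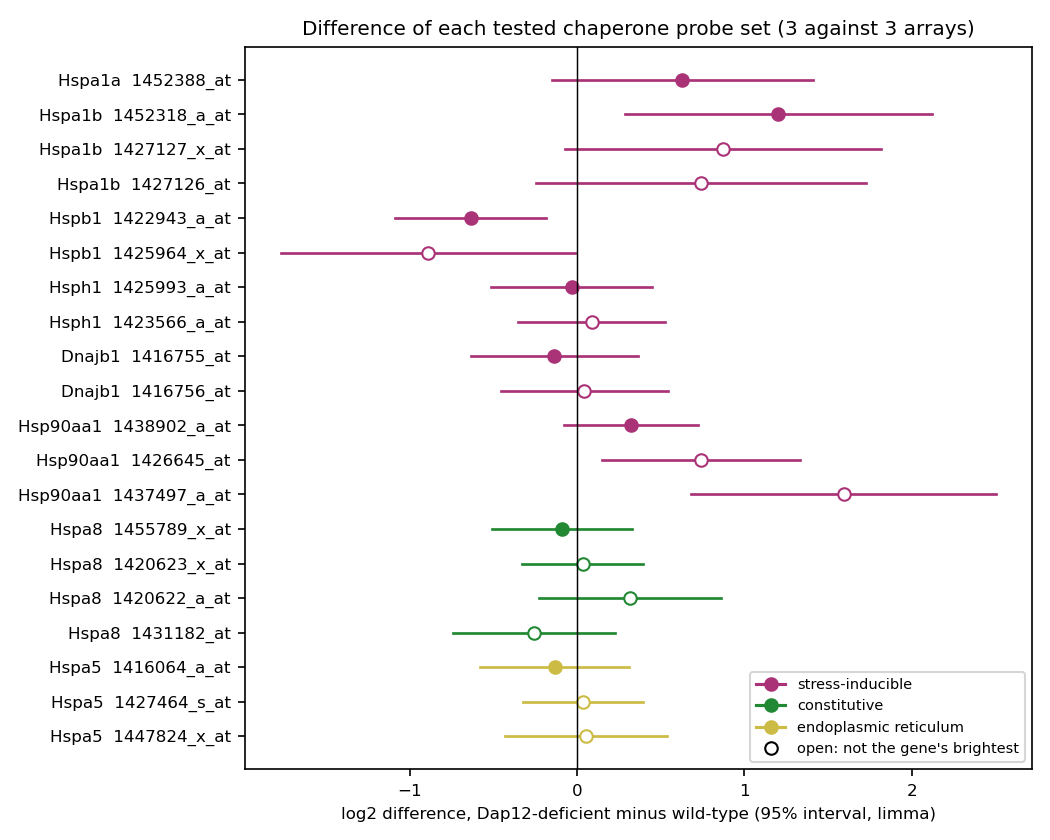
log2 difference (Dap12-deficient minus wild-type) with its 95% interval from limma for each of the 20 tested probe sets; filled points mark the brightest probe set of a gene and colours its role. The intervals of 5 probe sets, of Hspa1b, Hspb1 and Hsp90aa1, exclude 0 before adjustment, and those of Hsph1, Dnajb1, Hspa8 and Hspa5 include it.

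Hsph1 and Dnajb1, the partners that drive the Hsp70 cycle, lay near their wild-type means. Hsph1 exchanges the nucleotide of Hsp70, and its brighter probe set gave 560, 616 and 721 in wild-type against 593, 495 and 789 in Dap12-deficient cultures. The groups overlapped, with a difference of -0.03 on the log2 scale (SE 0.22, 95% interval -0.51 to 0.45). Its second probe set had 0.09 (SE 0.20). Dnajb1 hands unfolded proteins to Hsp70 and stimulates its ATPase. Its brighter probe set gave 927, 933 and 1136 in wild-type against 987, 660 and 1128 in Dap12-deficient cultures, with array 2 of the latter the lowest of all 6. The log2 difference was -0.14 (SE 0.23, 95% interval -0.64 to 0.36), and the dimmer probe set had 0.04 (SE 0.22). On Dap12-deficient array 3 Hsph1 was at 1.25 and Dnajb1 at 1.13 times their wild-type means by the brighter probe sets, where Hspa1b was at 5.56 times.

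The constitutive and endoplasmic reticulum chaperones showed no common direction. Hspa8 (Hsc70), which folds new proteins and uncoats clathrin vesicles, gave 6602, 9275 and 6853 in wild-type against 8065, 7202 and 6006 in Dap12-deficient cultures by its brightest probe set, a difference of -0.09 on the log2 scale (SE 0.19, 95% interval -0.51 to 0.33). Wild-type array 2 was the highest and Dap12-deficient array 3 the lowest. The other 3 tested probe sets had 0.03, 0.32 and -0.26, and by 1420622_a_at, which gave 1776, 1563 and 1951 against 1460, 2662 and 2706, Dap12-deficient arrays 2 and 3 were the highest. Hspa5 gave 5628, 4481 and 5393 in wild-type against 3612, 5706 and 4993 in Dap12-deficient cultures by its brightest probe set, a difference of -0.13 on the log2 scale (SE 0.20, 95% interval -0.58 to 0.31). Its other probe sets had 0.04 and 0.06. All probe sets of both genes overlapped between the groups.

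The inducible genes were then set against the constitutive gene on each array. For every gene the log2(signal + 16) of its brightest probe set was expressed as the deviation from its own mean over the 6 arrays, so that no probe set's level was compared with another's, and the deviation of Hspa8 was subtracted from the mean deviation of the 6 inducible genes. This contrast was 0.02, -0.49 and -0.0021 on wild-type arrays 1, 2 and 3 against -0.29, -0.03 and 0.79 on Dap12-deficient arrays 1, 2 and 3. The groups overlapped, and Dap12-deficient array 3 was the highest and wild-type array 2 the lowest. The means were -0.16 ± 0.29 (SD, n = 3) and 0.16 ± 0.57 (SD, n = 3), a difference of 0.31 that is smaller than the SD of the Dap12-deficient arrays. It was -0.00445 without Dap12-deficient array 3 and 0.147 without wild-type array 2. No p is given for this score, since its members were chosen together.

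The parts of the contrast differed. The deviations of Hspa1a and Hspa1b averaged -0.40, -0.53 and -0.44 on wild-type arrays against -0.27, 0.12 and 1.52 on Dap12-deficient arrays. The 4 other inducible genes averaged 0.03, 0.06 and 0.09 on wild-type arrays against -0.08, -0.12 and 0.02 on Dap12-deficient arrays. The latter were all lower, but the 4 genes did not share a direction. On the log2 scale Hspb1 differed by -0.64, Dnajb1 by -0.14, Hsph1 by -0.03 and Hsp90aa1 by 0.32, so Hspb1 weighed most in the lower mean. Without the Hspa1 pair the difference of the contrast was -0.03. By 1420622_a_at in place of the brightest Hspa8 probe set it was -0.09, and by the other 2 it was 0.19 and 0.48. The sign of the contrast between the groups therefore depended on the Hspa1 pair, on 1 array and on the probe set that stands for Hspa8.

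**Figure D4:**
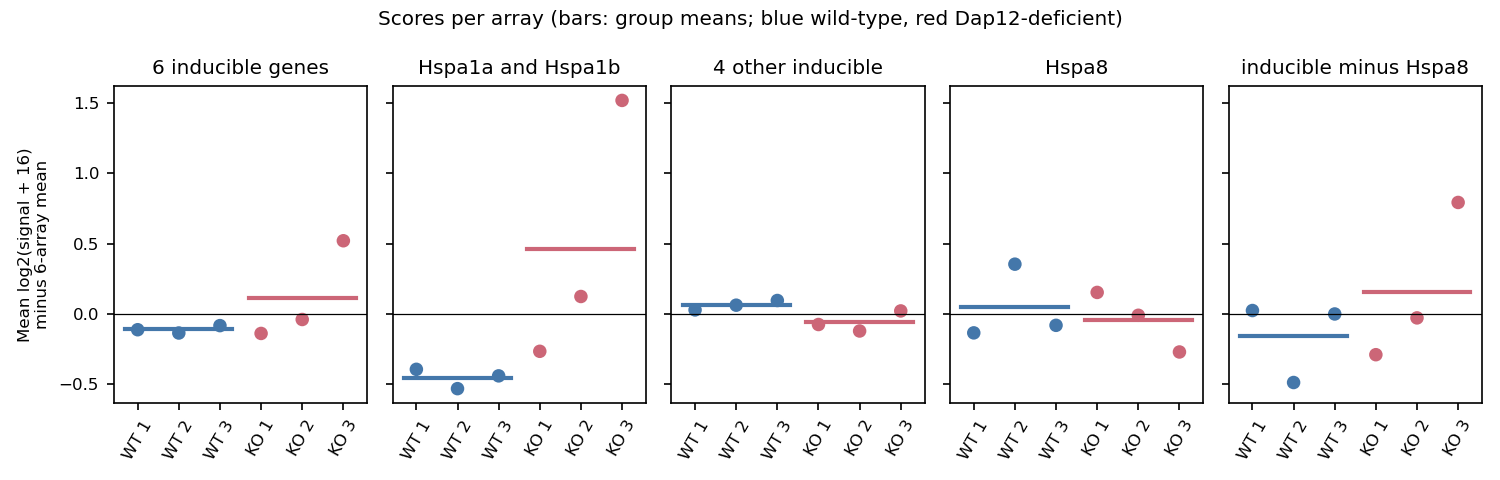
Mean log2(signal + 16) minus the 6-array mean, per array, for the 6 inducible genes, the Hspa1 pair, the 4 other inducible genes, Hspa8, and the inducible genes minus Hspa8 (blue wild-type, red Dap12-deficient; bars are group means). Dap12-deficient array 3 is at 1.52 for the Hspa1 pair and at 0.02 for the 4 other inducible genes.

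Other chaperone genes were taken from 7 lists with 93 genes, of which 83 had a tested probe set. With 1 probe set per gene, 0 passed at a limma adjusted p under 0.05 (background 0.0155%), and 5 had an unadjusted p under 0.05, with 2 higher (background 4.76%) and 3 lower (background 4.87%). Of the 83 genes 32 were higher (background 45.2%) and 51 lower, with a median of -0.06 beside -0.03 for all genes. Groups did not overlap for 7 higher (background 7.54%) and 5 lower genes (background 8.85%). On Dap12-deficient array 3, 20 of the 83 had their highest signal, beside 20.5% of all genes.

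Partners of Hsp70 in the cytosol lay mostly near 0, while most co-chaperones of Hsp90 were lower in Dap12-deficient cultures, without passing the test. Of 22 tested partners and relatives of Hsp70, 9 were higher and 13 lower (median -0.01). Hspa2, a relative best known from the testis, had a difference of 0.58 on the log2 scale (SE 0.23). Stub1 (CHIP), the ubiquitin ligase that sends Hsp70 clients to the proteasome, had -0.76 (SE 0.34), with 558, 585 and 567 in wild-type against 173, 555 and 369 in Dap12-deficient cultures. Dap12-deficient array 2 thus lay close to the wild-type values. Bag1, a nucleotide exchange factor of Hsp70, had -0.33 (SE 0.20). Of 12 co-chaperones of Hsp90, 2 were higher (background 45.2%) and 10 lower (median -0.19). Hsp90aa1 itself had a higher mean by all its probe sets. The phosphatase gene Ppp5c had -0.61 (SE 0.30), the kinase adaptor gene Cdc37 -0.43 (SE 0.23) and Fkbp5, a co-chaperone of steroid receptors, -0.38 (SE 0.22). Ppp5c and Cdc37 overlapped between the groups, with Dap12-deficient array 1 the lowest, at 53.1 and 248, while Fkbp5 did not overlap. The mean deviation of the Hsp90 co-chaperones was 0.08, 0.08 and 0.17 on wild-type arrays. On Dap12-deficient arrays it was -0.26, -0.05 and -0.02, all lower, with array 1 the furthest from wild-type.

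Among the other small heat shock proteins, 3 were higher and 2 lower (median 0.00192). Cryab, the alpha B crystallin gene that astrocytes and oligodendrocytes also express, gave 225, 95.5 and 136 in wild-type against 90.9, 44.6 and 224 in Dap12-deficient cultures, a difference of -0.46 on the log2 scale (SE 0.44). Dap12-deficient array 3 was the highest of its group. Hspb2 and Hspb7 were dim, at most 20.6, with 0.35 (SE 0.20) and 0.13 (SE 0.27). Of 3 tested heat shock factors and regulators, Hsf2, at most 16.7, had 0.34 (SE 0.24), the collagen chaperone gene Serpinh1 0.12 (SE 0.24) and Hsbp1, whose product binds heat shock factor 1, -0.09 (SE 0.19).

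The organelle chaperones did not share a direction gene by gene either. In mitochondria 6 of 11 genes were higher and 5 lower (median 0.01). Hspa9 (mortalin), the Hsp70 of the mitochondrial import motor, gave 1960, 2119 and 1734 in wild-type against 2548, 2592 and 3115 in Dap12-deficient cultures. The groups did not overlap, with a difference of 0.50 on the log2 scale (SE 0.17, limma adjusted p = 0.371). Trap1, the mitochondrial Hsp90, had 0.24 (SE 0.19) and the exchange factor gene Grpel1 -0.27 (SE 0.19). In the endoplasmic reticulum 8 of 22 genes were higher and 14 lower (median -0.13). The mean deviation of these genes was 0.05, 0.05 and 0.02 on wild-type arrays. On Dap12-deficient arrays it was -0.02, -0.02 and -0.08, all lower. Creld2, a target of the unfolded protein response, gave 417, 363 and 403 in wild-type against 248, 281 and 271 in Dap12-deficient cultures, a difference of -0.54 on the log2 scale (SE 0.18, limma adjusted p = 0.365), with all 3 arrays lower. Dnajb11, an Hsp40 partner of Hspa5, had -0.82 (SE 0.31) with overlapping groups, and the disulphide isomerase gene Pdia4 0.60 (SE 0.31). Of 8 subunits of the cytosolic chaperonin, which folds actin and tubulin, 2 were higher and 6 lower (median -0.03), between -0.25 for Cct6a and 0.18 for Cct4, with Cct5 at -0.15.

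**Figure D5:**
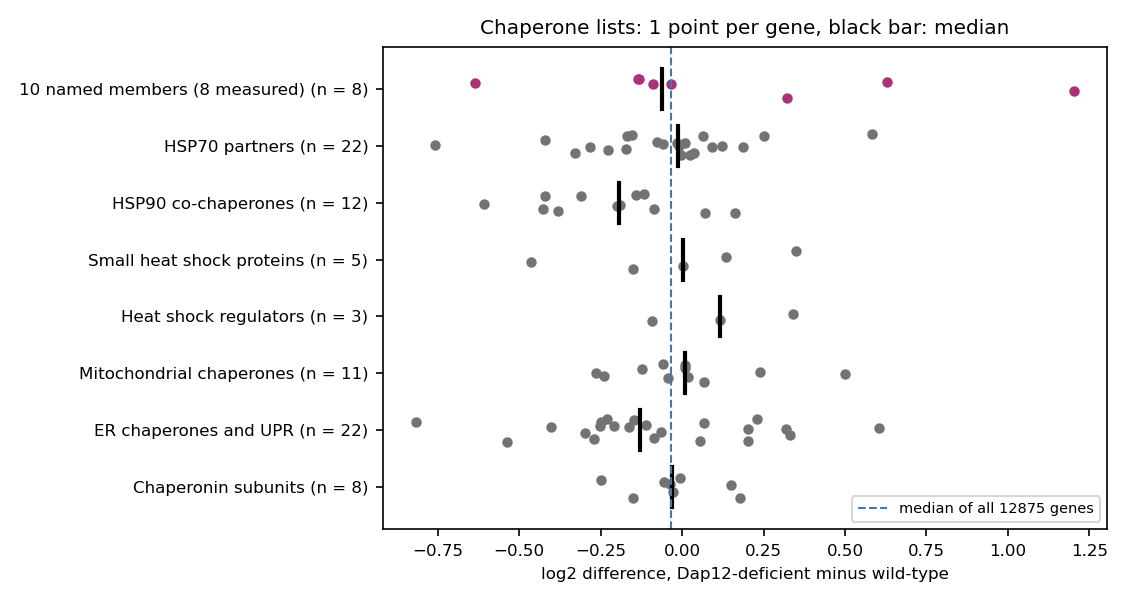
log2 difference (Dap12-deficient minus wild-type) of the brightest tested probe set of each gene, for the 8 measured members and 7 other chaperone lists, with 1 point per gene, black bars at list medians and a dashed line at the median of all 12875 genes. List medians lie between -0.19 and 0.12. Hspa1b lies at the right edge (1.20), and Hspa1a (0.63) lies close to Pdia4 (0.60) of the endoplasmic reticulum list.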

How the data were processed

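Total RNA of 6 samples was labelled with biotin by a kit of 2 cycles, per the labels' protocols; such amplification shortens transcripts, so probes far from the transcript's end can read low. The deposited table holds intensity on a linear scale, 1 value per probe set and array; the authors used GCOS, per the submitters' processing notes, with summary algorithm and settings not given in the sources used here. Arrays have no depth, and their number limits precision.

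Groups came from the labels, and replicates were numbered by accession order. Probe sets were named from the platform annotation (1 symbol only). Of 45101 probe sets, 64 controls were left out, and the 27022 with a mean at or above the 40th percentile (8.51) were tested: log2(signal + 16), limma 3.58.1 in R 4.3.3 (lmFit, eBayes with trend), two-sided, Benjamini-Hochberg adjusted p under 0.05 over all tested. On this log2 scale differences of dim genes are understated. The steps were tested on simulated data, where they found 20.4% of log2 differences of 1 and 78.6% of those of 2. Most simulated differences of 1 were thus missed. Members and lists were chosen with earlier results of these data known. Named genes are all members, Tyrobp and the 3 genes of each pathway list with the smallest p. Chosen after their values were seen were the markers Gfap, Csf1r, Pecam1, Mbp, Cnp, Olig1, Olig2 and Pdgfra, Fos and those in the closing section. Alternatives changed the pseudocount, scaling, filter, variance model, weights, probe sets, score and arrays. Plots used matplotlib 3.10.9 in Python 3.11.15.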

Additional observations from a re-analysis of the deposited data

How the results depend on the processing

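Under 17 alternatives, those without 1 array included, 0 member probe sets passed the threshold in limma. Over all probe sets the count of 2 was 4 with array weights and 1 without probe sets that can bind several transcripts, and 2 to 172 with 1 array left out, where 15 passed without Dap12-deficient replicate 1 and 172 without Dap12-deficient replicate 2. The member count of 5 at an unadjusted p under 0.05 was 1 without probe sets that can bind several transcripts, which leaves 6 member probe sets, and 3 without wild-type replicate 3. Hspa1a, Hspa1b and Hsp90aa1 stayed higher and Hspb1 lower in each alternative that measured them. Members near 0 changed sign with 1 array left out: Dnajb1 ran from -0.295 to 0.0843, Hspa5 from -0.275 to 0.0536, Hspa8 from -0.187 to 0.0656 and Hsph1 from -0.209 to 0.118. With all tested probe sets of a gene averaged, Hspa8 was at 0.000953 and Hsph1 at 0.0272. The difference of the inducible minus constitutive score, 0.31, ran from -0.00445 to 0.538 with 1 array left out. It was 0.175 with the Hspa1 pair counted as 1 gene. Without probe sets that can bind several transcripts it was 0.75, but that score holds neither Hspb1 nor Hsph1. It also reads Hspa1b, Hsp90aa1 and Hspa8 by dimmer probe sets, that of Hspa8 with a wild-type mean of 61.4 beside 7577 for its brightest. The fits without the Hspa1 pair and with the other Hspa8 probe sets were chosen after seeing the data. A common median moved the median of all tested probe sets from 0.03 to -0.09 and the share above 0 from 53.4% to 37.8%. No paired analysis was possible because replicate numbers were given in accession order and pair nothing.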

Other observations

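The excess of Hspa1a and Hspa1b signal on Dap12-deficient array 3 was among the largest of that array, a comparison chosen after seeing the data. By the log2 gap to the next highest array, the probe sets of Hspa1b ranked 9, 11 and 18 and that of Hspa1a 32 among 27022. On this array 103 probe sets exceeded the next array by over 1 on the log2 scale, beside 216 on Dap12-deficient array 1 and 0 to 7 on each of the other 4. By gene, 6 had a larger gap than Hspa1b, with no list or test behind them. In order of the gap they were Ywhaz (a 14-3-3 protein), at 1314 against 51.7 to 250 on the other arrays, Elobl, at 167 against 5.76 to 26.7, and Kdm6b (a histone H3 demethylase), at 582 against 51.7 to 152. Then came Gadd45b, a stress-induced regulator of growth arrest, at 1643 against 287 to 470, Tagln, a contractile gene, at 188 against 32.1 to 45.9, and Nr4a2, an orphan nuclear receptor, at 197 against 19.7 to 56.0. These are values of 1 array with no replicate.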
